A study of Mus musculus with 28 samples.

Results

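Livers of male mice that lacked c-Myc in endothelial cells were compared with livers of floxed control males after both had been fed the high-fat, high-cholesterol diet (HFC), with 4 animals in each group and 1 RNA library per liver. These 8 libraries were chosen by the genotype, diet and animal number in their labels, from 28 libraries in the series, and all 14078 genes that passed a filter on low counts were compared. The knockout animals (KO) carry the numbers 414, 415, 539 and 540, and the controls (CT) 416, 417, 418 and 543. All were C57BL/6 males, 13 weeks old by the labels. Both genotypes carried floxed alleles and both received tamoxifen, the drug that switches on the recombinase, at 5 weeks of age. They went onto HFC 2 weeks later and stayed on it for 5 weeks. These steps add up to less than the labelled age. The promoter that drives Cre is not given in the sources used here, and neither are litters or cages. Males on a low-fat control diet (CTD), 4 per genotype, and females on HFC, 3 per genotype, are used below to set the male HFC values beside those of other animals. The series asks what endothelial c-Myc does in a liver that such a diet inflames and scars.

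c-Myc is a transcription factor that pairs with Max, binds the short DNA motif called the E-box, and raises genes of ribosome assembly, nucleotide synthesis and cell division. Endothelial cells line the sinusoids, the blood channels of the liver. They decide which leukocytes leave the blood, and they send signals to hepatocytes, to macrophages and to the stellate cells that lay down collagen. A whole-liver library is mostly hepatocyte RNA, with smaller shares from endothelial cells, Kupffer cells (the resident macrophages), stellate cells, bile duct cells and leukocytes. In such a library, fewer cells of a type and less RNA per cell cannot be told apart.

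No gene passed the test. At a Benjamini-Hochberg adjusted p under 0.05 in edgeR's quasi-likelihood test, 0 of 14078 genes (0%) were called in either direction, and the smallest adjusted p was 0.958. At an unadjusted p under 0.05 there were 653 genes (4.64% of those tested), 402 higher in KO (2.86%) and 251 lower (1.78%). DESeq2 placed 688 genes below that unadjusted level and called 3, each with 0 counts in every KO liver and in at least 1 CT liver. limma placed 610 there and called 0. The 4 KO values lay above all 4 CT values for 153 genes (1.09%) and below them for 151 (1.07%), together 2.16%. Among the 847 tested genes of the gene lists used below, 7 lay above and 7 below in this way, together 1.65%. A lack of overlap named for a list gene below is thus no more frequent in the lists than among all genes. The log2 fold change, KO minus CT, was above 0 for 7191 genes (51.1%), and its median was 0.0037. The values below are therefore descriptions of these 8 livers, and no gene or list is reported as having changed.

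The comparison was fairly precise for most genes. The median standard error of a log2 fold change was 0.13, and for 9591 genes (68.1%) the 95% confidence interval lay within a 1.5-fold difference in either direction. For 12237 genes (86.9%) it lay within a 2-fold difference. In simulated counts with the spread of these libraries, the same test recovered 72% of 50 genes changed by 1 on the log2 scale and 44% of 50 genes changed by 0.5. The simulation also held 46 tested genes changed by 1.5 and 49 changed by 2, which eases the adjusted threshold for smaller changes. Each gene was drawn on its own, without differences that many genes of 1 liver share. Recovery in the real counts may therefore be lower. Library totals were 22196484 to 22652285 counts in KO and 22194470 to 22386827 in CT (exact two-sided permutation p = 0.114 over 70 regroupings). The share of mitochondrial counts was 10.8 ± 0.502% in KO and 10.7 ± 0.541% in CT (SD, n = 4). Across all tested genes, livers of different genotype were 0.46 log2 units apart (median root mean square difference of 16 pairs), and livers of 1 genotype 0.483 (KO) and 0.476 (CT) apart. KO 414 stood farthest from the rest, at a mean distance of 0.554 against 0.444 to 0.492 for the other 7. Values without this liver, or without another that moved a result, stand beside many of the results below. The animal numbers fall into a range of the 400s and a range of the 500s that the labels do not explain, and the higher range holds 1 CT liver, so values within the 400s (KO 414 and 415 against CT 416, 417 and 418) are added for the leading results.

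**Figure D1:**
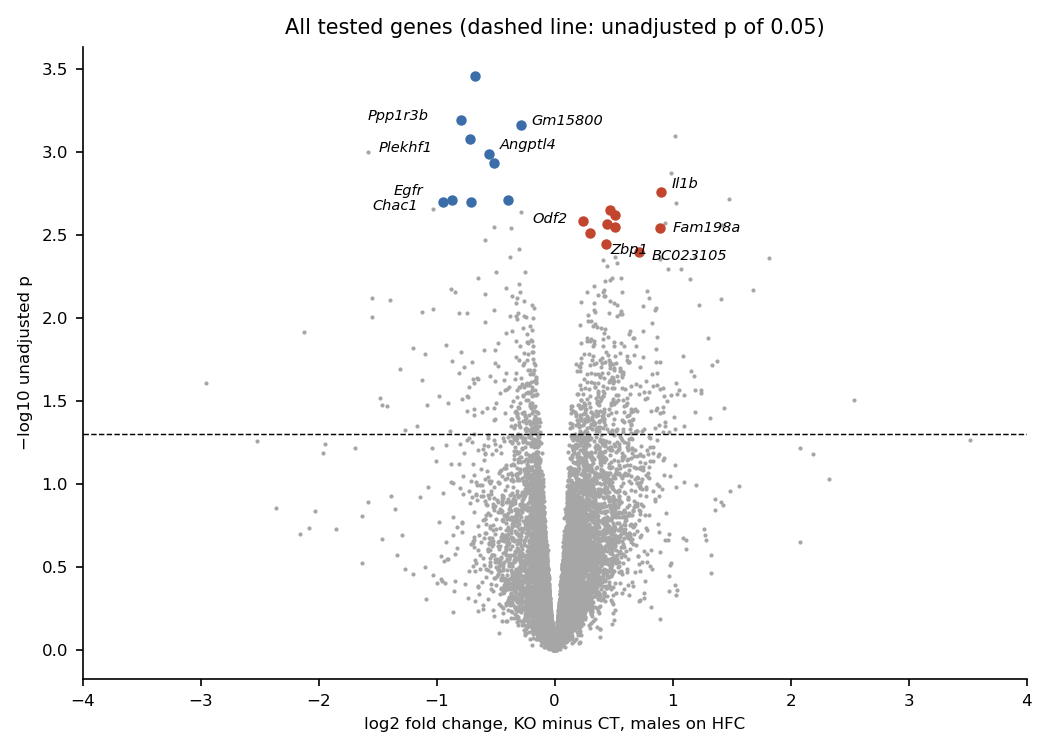
Log2 fold change (x axis, KO minus CT) against −log10 of the unadjusted p (y axis) for the tested genes in males on HFC, with 5 genes outside the plotted range of 4 log2 units left out. Red and blue points are the genes nearest the top in each direction among those of at least 5 CPM. No point passes the adjusted threshold, and the labelled points lie above the dashed line at an unadjusted p of 0.05.

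Myc itself was measured in every liver. KO livers on HFC held 20.03, 8.9, 5.62 and 11.2 CPM (counts scaled to library size with TMM factors, here and below), in the order of the animal numbers above, and CT livers held 6.29, 3.58, 11.3 and 12.4 CPM. The groups overlapped, and KO 414 had the highest value of the 8. The KO to CT ratio was 1.36 with a 95% interval of 0.611 to 3.04, and the log2 difference of 0.45 went to 0.028 without KO 414. Many liver cells make Myc, so this level does not check the deletion in endothelial cells. The Myc network holds Myc, its partner Max, and antagonists and relatives that pair with Max or with the related factor Mlx. Among 12 genes of this network, 8 were above 0, with a median of 0.030 beside 0.0037 for all tested genes. The relative Mlxip, a glucose-sensing factor, was the 1 member at an unadjusted p under 0.05 (log2 -0.27, SE 0.12, unadjusted p = 0.0417). Mycn, a Myc paralogue, had 0.782, 0.861, 1.45 and 1.43 CPM in KO and 1.17, 2.47, 1.24 and 1.41 CPM in CT, with overlap (log2 -0.48, SE 0.27, unadjusted p = 0.0969).

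Genes that Myc is known to raise in dividing cells lay close to 0. All 30 genes of ribosome biogenesis and other known Myc targets were tested, 16 were above 0 and 14 below, and none was at an unadjusted p under 0.05. Their median log2 difference was 0.027 and their range -0.15 to 0.18. The 95% interval lay within a 1.5-fold difference for 30 of 30, against 68.1% of all tested genes. Because a whole-liver library is mostly hepatocyte RNA, these values do not show what Myc targets did in endothelial cells. Ncl, the nucleolar protein nucleolin, held 129, 125, 124 and 133 CPM in KO and 145, 133, 141 and 130.0 in CT (log2 -0.10, SE 0.07, unadjusted p = 0.171). Npm1, another abundant nucleolar protein, had a log2 difference of -0.091 (SE 0.079), and Odc1, the first enzyme of polyamine synthesis, -0.075 (SE 0.10). The rRNA methyltransferase gene Nop2 had the smallest p of the list, with 15.2, 15.95, 13.8 and 16.4 CPM in KO and 16.1, 16.9, 18.2 and 16.8 in CT (log2 -0.15, SE 0.088, unadjusted p = 0.106). The 29 cytosolic ribosomal protein genes had a median of -0.0081, and all 29 intervals lay within a 1.5-fold difference.

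The E-box that Myc and Max bind has the core letters CACGTG, which read the same on both strands. It was looked for in the 250 bases before the gene start, in RefSeq promoters of GRCm38.p6. It was present for 1854 of 27025 genes with a promoter in the table (6.86%), for 991 of 10463 tested genes with one (9.47%), and for 6 of the 25 listed Myc targets with one (24%), namely Cdk4, Eif4e, Ldha, Nme1, Nop2 and Phb. With 0 genes called, no motif share could be given for changed genes. The 3 stretches below show how such promoters read, each 5′ to 3′ on the gene's own strand and ending at the base before the start, with every CACGTG in capitals. Nop2 has 1 copy, Ldha 2 and Cdk4 4. They lie at chr6:125131633-125131882 on the plus strand, chr7:46845554-46845803 on the plus strand and chr10:127063285-127063534 on the plus strand.
Nop2: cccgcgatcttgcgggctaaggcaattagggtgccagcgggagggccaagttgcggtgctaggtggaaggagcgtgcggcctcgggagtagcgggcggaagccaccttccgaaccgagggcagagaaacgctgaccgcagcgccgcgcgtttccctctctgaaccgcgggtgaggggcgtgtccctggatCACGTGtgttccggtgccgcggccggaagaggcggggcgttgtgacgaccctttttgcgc
Ldha: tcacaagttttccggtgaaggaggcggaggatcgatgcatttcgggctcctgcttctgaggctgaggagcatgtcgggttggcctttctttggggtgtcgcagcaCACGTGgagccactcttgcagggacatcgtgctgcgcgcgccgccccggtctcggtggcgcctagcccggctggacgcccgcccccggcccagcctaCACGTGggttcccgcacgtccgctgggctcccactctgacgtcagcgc
Cdk4: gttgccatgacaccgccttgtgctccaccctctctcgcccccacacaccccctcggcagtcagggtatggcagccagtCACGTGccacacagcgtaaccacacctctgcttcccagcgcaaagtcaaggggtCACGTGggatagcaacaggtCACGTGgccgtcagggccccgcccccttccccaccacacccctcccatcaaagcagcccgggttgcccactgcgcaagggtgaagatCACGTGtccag
Ldha, lactate dehydrogenase A, differed between genotypes by 0.056 (SE 0.13) on the log2 scale and Cdk4, a kinase that starts the cell cycle, by 0.043 (SE 0.073). Both 95% intervals lay within a 1.5-fold difference (-0.23 to 0.34 for Ldha and -0.11 to 0.20 for Cdk4).

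Endothelial markers were detected in every liver, and most of their differences lay slightly below 0. Of 20 general endothelial markers 6 were above 0, with a median of -0.10 and no member at an unadjusted p under 0.05. All 20 intervals lay within a 2-fold difference, and 13 of 20 within a 1.5-fold difference (65%, against 68.1% of all genes). The junction protein gene Cdh5 (VE-cadherin) held 36.3, 35.7, 29.1 and 39.9 CPM in KO and 41.2, 24.999, 33.04 and 34.6 in CT, a difference of 0.076 (95% interval -0.21 to 0.37). Pecam1, an adhesion molecule of endothelial junctions, differed by -0.10 (-0.37 to 0.17), and Kdr, the main VEGF receptor, by -0.061 (-0.53 to 0.41). CT 416 had the highest list score (mean log2(CPM + 1) of the members) at 3.78, and without it the list median was 0.056.

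Of 16 markers of liver sinusoidal endothelium 1 was above 0, with a median of -0.12, which was 0.00068 without CT 416. Stab1, a scavenger receptor that clears oxidised lipoproteins and matrix fragments, was the 1 member whose groups did not overlap. It held 43.5, 48.2, 39.5 and 41.7 CPM in KO and 60.2, 52.96, 51.5 and 52.5 in CT (log2 -0.33, SE 0.11, unadjusted p = 0.00968), and -0.33 went to -0.25 within the 400s. The related receptor Stab2 had 47.4, 60.8, 44.7 and 49.04 CPM against 68.1, 49.4, 52.5 and 53.2 CPM, with overlap (log2 -0.14, SE 0.13, unadjusted p = 0.301). Lyve1, a hyaluronan receptor, differed by -0.11 (SE 0.19). On CTD, KO minus CT was -0.29 for the sinusoidal list and -0.24 for the general list, and in HFC females -0.12 and -0.15.

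Adhesion molecules that endothelium and other cells display in inflammation were split. Of 14 such genes 7 were above 0. Icam1, which binds leukocyte integrins, held 36.2, 29.9, 27.996 and 28.9 CPM in KO and 21.9, 20.8, 28.7 and 23.9 in CT (log2 0.37, SE 0.12, unadjusted p = 0.00724), with only CT 418 inside the KO range. Ly6a, an interferon-induced surface protein, had 17.6, 18.7, 23.1 and 18.996 CPM in KO and 9.98, 12.7, 13.2 and 19.6 CPM in CT, of which CT 543 lay within the KO range (log2 0.50, SE 0.18, unadjusted p = 0.0147). Vcam1, another leukocyte adhesion molecule, differed by -0.042 with a wide interval (-0.64 to 0.55). Among 16 endothelial signal genes the Notch ligand Dll4 had log2 -0.31, SE 0.26, unadjusted p = 0.249, and the receptor Notch1 log2 -0.21, SE 0.12, unadjusted p = 0.0982.

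Macrophage genes had small differences of 1 sign, none of which passed the test. All 22 of 22 general macrophage and monocyte markers were above 0, with a median of 0.34, a range of 0.13 to 0.51, and 6 higher and 0 lower at an unadjusted p under 0.05. For comparison, 51.1% of all genes were above 0 and 2.86% were higher at that level. Markers of 1 cell type are not separate observations. The 95% interval lay within a 1.5-fold difference for 4 of 22, against 68.1% of all genes. The list scores were 5.45, 4.93, 5.27 and 5.24 in KO and 4.67, 4.67, 4.95 and 5.3 in CT. KO 414 was highest, CT 543 was second, and CT 416 and CT 417 were lowest. The median was 0.24 without KO 414, 0.51 without CT 543 and 0.47 within the 400s.

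Aif1, a cytoskeletal protein of activated macrophages, had 6.48, 5.54, 7.73 and 9.29 CPM in KO and 4.49, 4.77, 5.11 and 6.6 CPM in CT (log2 0.47, SE 0.16, unadjusted p = 0.00786). Fcer1g, the signalling chain of Fc receptors, held 42.5, 25.1, 35.9 and 37.7 CPM against 23.1, 21.2, 27.8 and 33.8 CPM (log2 0.42, SE 0.17, unadjusted p = 0.0229). For the lysosomal glycoprotein Cd68 the values were 44.7, 22.8, 30.2 and 31.9 in KO and 18.9, 19.2, 27.5 and 32.97 in CT (log2 0.39, SE 0.22, unadjusted p = 0.0993). Adgre1, which encodes F4/80, differed less, by 0.13 (95% interval -0.19 to 0.46), and so did Csf1r, the receptor for macrophage growth factor, at 0.19 (-0.13 to 0.50). Clec12a, an inhibitory lectin of myeloid cells, and Treml4, a myeloid receptor, were among the 10 genes of smallest p on the higher side that reach at least 5 CPM. Clec12a held 17.6, 12.1, 15.8 and 15.2 CPM in KO and 8.72, 10.8, 11.5 and 12.9 in CT (log2 0.47, SE 0.13, unadjusted p = 0.00224), and Treml4 16.01, 11.5, 12.9 and 14.7 against 8.3, 7.55, 10.6 and 12.2 CPM (log2 0.51, SE 0.14, unadjusted p = 0.00238). In both genes CT 543 lay above the lowest KO liver.

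Kupffer cell markers had the same sign. Of 12 tested 11 were above 0, against 51.1% of all genes, with a median of 0.29. At an unadjusted p under 0.05, 4 were higher, against 2.86% of all genes. Timd4, a receptor for dying cells on resident Kupffer cells, held 17.3, 19.7, 22.2 and 25.03 CPM in KO and 14.9, 14.6, 15.3 and 20.5 CPM in CT, where CT 543 was the highest control (log2 0.37, SE 0.14, unadjusted p = 0.0215). Clec4f, a lectin restricted to Kupffer cells, had 115, 119, 119 and 129 CPM against 96.8, 99.9, 90.5 and 134 CPM (log2 0.20, SE 0.13, unadjusted p = 0.138). Vsig4, a complement receptor, differed by 0.25 (95% interval -0.026 to 0.52). The list scores of KO were 5.44, 5.34, 5.45 and 5.48 and those of CT 5.1, 4.97, 5.13 and 5.43, so 3 of the 4 controls lay below every KO liver.

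Genes of recruited and lipid-associated macrophages rested on 1 liver. Their median was 0.42 over 16 genes and -0.079 without KO 414. The 95% interval lay within a 1.5-fold difference for 1 of 16. Gpnmb, a lysosomal glycoprotein of lipid-laden macrophages, had 71.5, 3.4, 7.77 and 9.25 CPM in KO and 1.89, 3.09, 24.1 and 8.68 in CT, and its difference of 1.28 became -0.47 without KO 414. For Trem2, a lipid-sensing receptor of the same cells, the 2 highest livers were CT 418 and KO 414, at 12.1, 7.71, 7.53 and 9.13 CPM in KO and 8.09, 6.23, 13.2 and 5.94 in CT. Its difference of 0.12 was -0.044 without KO 414 and -0.0085 without CT 543. Ccr2, the chemokine receptor of incoming monocytes, was near 5 CPM in most livers and highest in KO 414, with 9.75, 4.63, 5.87 and 5.99 CPM in KO and 4.78, 4.64, 5.15 and 5.11 in CT (log2 0.42, SE 0.22, unadjusted p = 0.0738), or 0.16 without KO 414. Cd44, a hyaluronan receptor of activated leukocytes, differed by 0.37 (95% interval 0.045 to 0.69).

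MHC class II genes present antigen to T cells and are made by dendritic cells, B cells and activated macrophages. All 10 of 10 were above 0, with a median of 0.52 and 3 at an unadjusted p under 0.05. Of all tested genes, 51.1% were above 0 and 2.86% were higher at that level. Members of a list are not separate observations. The confidence interval lay within a 1.5-fold difference for 0 of 10 and within a 2-fold difference for 4 of 10, against 68.1% and 86.9% of all genes. H2-Ab1, a class II chain, held 185, 137, 196 and 147 CPM in KO and 84.6, 92.2, 117 and 182 CPM in CT (log2 0.48, SE 0.22, unadjusted p = 0.0492). Cd74, the chaperone of class II molecules, held 602, 437, 678 and 417 CPM against 264, 276, 368 and 547 CPM (log2 0.55, SE 0.26, unadjusted p = 0.0513). H2-DMb1, part of the complex that loads peptides, had 26.2, 15.1, 25.6 and 19.4 CPM and 10.6, 11.6, 15.1 and 21.2 CPM (log2 0.56, SE 0.20, unadjusted p = 0.014). In these 3 genes CT 543 lay among the KO values and CT 416 and 417 lay below every KO liver, as did CT 418 for H2-Ab1 and Cd74. The list median was 0.74 without CT 543 and 0.44 without KO 414, and 0.73 within the 400s.

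Class II promoters share a short element, the Y box, that the factor NF-Y recognises and that works together with the class II transactivator. Its core was searched as TGATTGG or, on the other strand, CCAATCA, in the same 250 bases. It was found for 6 of the 7 class II genes with a promoter in the table (85.7%), for 1142 of 10463 tested genes (10.9%) and for 2265 of all 27025 (8.38%). Of the 10 class II genes, 3 have no entry. The stretches of 3 genes are shown because this list had the largest median among the immune lists, with the Y-box core in capitals. They lie at chr17:34287824-34288073 on the minus strand, chr17:34305617-34305866 on the plus strand and chr17:34152941-34153190 on the plus strand.
H2-Aa: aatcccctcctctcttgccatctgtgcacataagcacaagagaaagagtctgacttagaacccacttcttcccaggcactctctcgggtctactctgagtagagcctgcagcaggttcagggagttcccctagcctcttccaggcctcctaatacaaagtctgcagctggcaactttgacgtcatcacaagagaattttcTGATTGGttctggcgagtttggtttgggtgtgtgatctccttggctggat
H2-Eb1: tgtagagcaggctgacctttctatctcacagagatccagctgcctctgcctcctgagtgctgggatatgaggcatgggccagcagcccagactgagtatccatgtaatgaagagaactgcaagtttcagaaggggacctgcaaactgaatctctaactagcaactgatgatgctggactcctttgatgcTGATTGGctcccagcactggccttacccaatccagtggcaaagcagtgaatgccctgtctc
H2-DMb1: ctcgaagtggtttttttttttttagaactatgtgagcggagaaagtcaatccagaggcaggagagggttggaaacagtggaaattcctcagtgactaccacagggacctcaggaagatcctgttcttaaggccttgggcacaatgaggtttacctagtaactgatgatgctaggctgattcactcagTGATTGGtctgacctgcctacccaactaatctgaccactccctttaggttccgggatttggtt
The core lies 50 to 63 bases before the start in these 3 genes. Their log2 differences were alike in size, 0.47 (SE 0.24) for H2-Aa, 0.43 (SE 0.25) for H2-Eb1 and 0.56 (SE 0.20) for H2-DMb1.

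On CTD these lists had the opposite sign. KO minus CT had a median of -0.37 and 0 of 22 macrophage markers above 0, -0.34 for Kupffer markers and -0.39 for MHC class II. Tested as the difference between the KO effect on HFC and on CTD, 21 of 22 macrophage markers, 7 of 12 Kupffer markers and 7 of 10 class II genes were at an unadjusted p under 0.05, where 6.05% of all tested genes were (852 genes, 4.08% with KO minus CT higher on HFC and 1.97% with it lower). None of the 14078 genes passed adjustment in this test between the diets (smallest adjusted p = 0.415 in edgeR's quasi-likelihood test), where DESeq2 called 5 genes, Treml4 among them, and limma 0. In CTD males alone, edgeR called 0 genes, with 949 at an unadjusted p under 0.05 (6.74%, with 2.83% higher and 3.91% lower in KO). Macrophage scores on CTD were 3.56, 3.69, 3.5 and 3.61 in KO and 3.63, 3.8, 4.02 and 4.29 in CT, with the controls spread over a wider range. Class II scores on CTD were 2.51, 2.31, 2.35 and 2.4 in KO and 2.47, 2.72, 2.35 and 3.06 in CT. The counts between the diets were not repeated without single CTD livers. CTD males are numbered 298 to 320 and HFC males from 414 up, so diet and number range cannot be told apart in this test. For Treml4 the difference between the diets was 1.13 (unadjusted p = 7.02e-05), and for Clec12a 0.92 (unadjusted p = 0.000213).

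In females on HFC, which are separate animals, the same 3 lists had medians of 0.42, 0.20 and 0.44. There 20 of 22, 10 of 12 and 8 of 10 genes were above 0. Single females varied widely, and the genotypes overlapped in both genes given here. H2-Ab1 held 216, 39.6 and 204 CPM in KO 412, 413 and 419, and 121, 166 and 27.6 CPM in CT 420, 510 and 512. Csf1r held 135, 66.01 and 113 CPM against 103, 111 and 70.8 CPM in the same order. All KO numbers lie below all CT numbers in these females, and the part of number range was not tested there. Over 13738 genes, the KO minus CT differences of HFC males and HFC females had a Pearson correlation of 0.347 and a Spearman correlation of 0.383. For HFC males and CTD males these were 0.047 and -0.0052 over 14078 genes. Genes are not independent, so these correlations describe the tables only. No gene was called for a difference between the sexes by edgeR's quasi-likelihood test (0 of 14685, 198 or 1.35% at an unadjusted p under 0.05, with 1 called by DESeq2 and 0 by limma), nor in females alone (0 of 13999, 311 or 2.22% at that level).

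**Figure D2:**
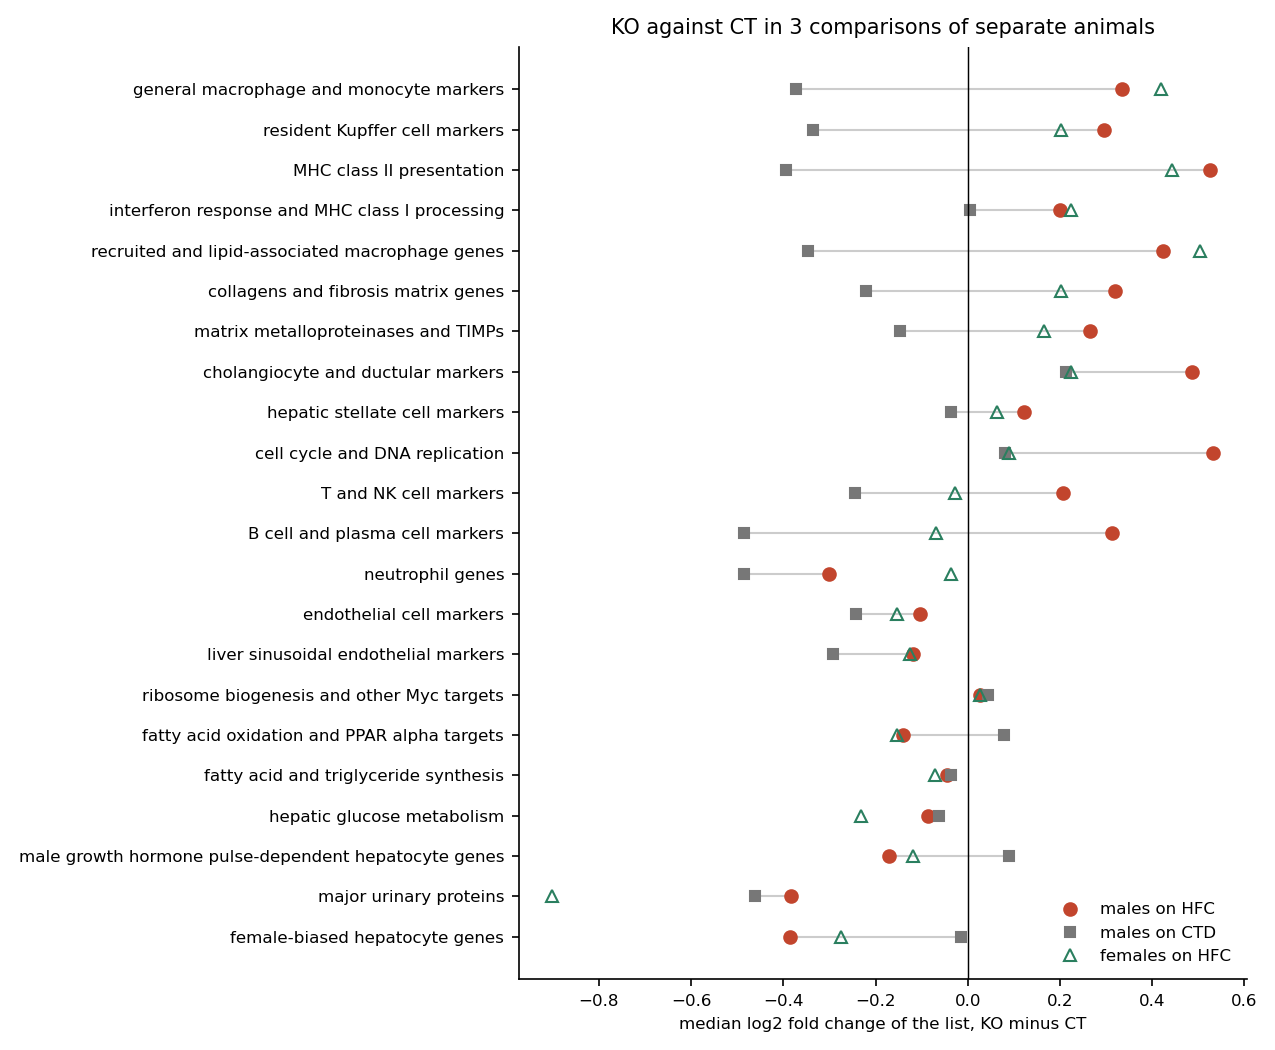
Median log2 fold change of each gene list, KO minus CT (x axis), in males on HFC (filled circles), males on CTD (squares) and females on HFC (open triangles). Macrophage, Kupffer and MHC class II lists lie between 0.2 and 0.52 in both HFC comparisons and between -0.34 and -0.39 on CTD, while Myc targets lie near 0 in all 3.

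Of 9 cytokine genes 8 were above 0, with a median of 0.37, or 0.18 without KO 414. Il1b, the interleukin-1 beta gene made by activated macrophages, had the smallest p on the higher side among genes of at least 5 CPM, and no overlap between groups. It held 6.25, 4.02, 6.53 and 4.32 CPM in KO and 3.06, 2.03, 3.27 and 2.91 CPM in CT (log2 0.90, SE 0.24, unadjusted p = 0.00173), with the lowest KO liver above the highest control. The difference was 0.81 without KO 414, 0.89 within the 400s, 0.68 on CTD and 0.31 in females. Tnf had 1.6, 0.656, 0.744 and 0.734 CPM in KO, of which KO 414 was highest, and 0.419, 0.442, 0.678 and 0.83 CPM in CT (log2 0.66, SE 0.33, unadjusted p = 0.0603), or 0.26 without KO 414. Of 11 CC chemokines 8 were above 0 and none was at an unadjusted p under 0.05, with a median of 0.50 that was 0.24 without KO 414. Ccl2, which draws in monocytes, held 4.5, 1.39, 2.15 and 1.88 CPM in KO and 0.922, 1.15, 2.31 and 2.41 in CT (log2 0.55, SE 0.43, unadjusted p = 0.22), and its difference was 0.086 without KO 414. Ccl5, which draws in T cells, held 7.82, 4.55, 9.8 and 5.75 against 3.23, 4.55, 3.67 and 7.31 CPM (log2 0.57, SE 0.32, unadjusted p = 0.0894), or 0.37 without KO 539 and 0.87 without CT 543.

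The median of 13 CXC and CX3C chemokines and receptors was 0.20, and -0.018 without KO 414. Cxcl10, an interferon-induced chemokine, had 15.3, 12.4, 11.3 and 11.1 CPM in KO and 6.2, 5.12, 12.97 and 8.51 CPM in CT, where CT 418 lay among the KO values (log2 0.61, SE 0.27, unadjusted p = 0.0387). The related Cxcl9, at 52.6, 47.4, 55.3 and 57.9 CPM in KO and 33.4, 39.05, 59.2 and 54.2 CPM in CT, differed by 0.20 (95% interval -0.33 to 0.72), or 0.069 without CT 416. Cx3cl1, a membrane-bound chemokine, was highest in KO 414, and its 0.93 became 0.39 without that liver.

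Of 23 interferon response genes 21 were above 0, against 51.1% of all genes, with a median of 0.20. The median was 0.20 without KO 414, 0.13 without CT 416 and 0.33 without CT 543. At an unadjusted p under 0.05, 5 were higher, against 2.86% of all genes. All 23 intervals lay within a 2-fold difference, and 12 of 23 within a 1.5-fold difference (52.2%, against 68.1% of all genes). Zbp1, a sensor of Z-form nucleic acid, held 26.95, 19.1, 19.4 and 24.2 CPM in KO and 14.1, 13.5, 19.6 and 15.8 CPM in CT (log2 0.51, SE 0.15, unadjusted p = 0.00282). Tap1, which carries peptides to MHC class I, held 54.2, 57.9, 65.6 and 50.7 against 35.97, 44.1, 45.9 and 56.5 CPM (log2 0.32, SE 0.12, unadjusted p = 0.0146). Irf7, a transcription factor of the response, differed by 0.28 (SE 0.15). CT 416 and CT 417 had the lowest scores, 5.23 and 5.3, and the other 6 livers lay between 5.55 and 5.69.

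Of 21 T and NK cell markers 17 were above 0, with a median of 0.21, which was 0.094 without KO 414, 0.12 without CT 417, 0.35 without KO 540 and 0.39 without CT 543. Prf1, the pore-forming protein of killer cells, had 0.67, 0.574, 0.703 and 0.408 CPM in KO and 0.252, 0.353, 0.279 and 0.374 CPM in CT, without overlap but below 1 CPM in every liver (log2 0.90, SE 0.34, unadjusted p = 0.0183). Trbc2, a T cell receptor constant region, had 2.46, 1.76, 1.49 and 1.51 against 1.3, 1.19, 0.878 and 1.41 CPM, also without overlap (log2 0.60, SE 0.25, unadjusted p = 0.0265). Cd3e, which every T cell carries, differed by 0.24 (95% interval -0.42 to 0.91), or 0.065 without KO 414, and Cd8a, the marker of cytotoxic T cells, by 0.42 (0.021 to 0.82). Of 15 B and plasma cell markers 11 were above 0. The heavy chain gene Ighm was highest in KO 414, with 25.02, 10.2, 9.02 and 10.8 CPM in KO and 6.75, 6.71, 9.34 and 9.72 in CT, and its 0.76 was 0.30 without KO 414. Ighd, the heavy chain of naive B cells, had 4.73, 3.98, 2.94 and 3.02 against 2.35, 2.3, 2.83 and 2.28 CPM without overlap (log2 0.59, SE 0.26, unadjusted p = 0.0367). Of 12 dendritic cell markers 10 were above 0, led by Irf8, a factor needed for these cells (log2 0.36, SE 0.13, unadjusted p = 0.0112), with a median of 0.24, or 0.057 without KO 414.

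Neutrophil genes had the opposite sign. Of 12 tested 2 were above 0, with a median of -0.30 and 3 lower at an unadjusted p under 0.05, against 1.78% of all genes. Camp, an antimicrobial peptide of granules, had 0.0745, 0.205, 0.331 and 0.448 CPM in KO and 0.419, 0.618, 1.52 and 0.54 CPM in CT (log2 -1.55, SE 0.53, unadjusted p = 0.00975). Ltf, lactoferrin, had 0.261, 0.697, 1.49 and 0.489 against 0.755, 1.72, 4.71 and 0.955 CPM (log2 -1.48, SE 0.62, unadjusted p = 0.0301). CT 418 was the highest liver for both, and without it the list median was -0.099 and Camp and Ltf differed by -0.99 and -0.64. S100a8 and S100a9, the calprotectin subunits, differed by -0.29 (SE 0.40) and -0.33 (SE 0.34), or by -0.011 and -0.019 without CT 418.

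Collagens and other matrix genes, the readout of fibrosis, were high in 1 KO liver. Of 36 matrix genes 29 were above 0, with a median of 0.32 that was -0.036 without KO 414. The list score was 4.82 in KO 414 and 3.71 to 4.08 in the other 7 livers. Col1a1, the main chain of fibrillar collagen, held 71.4, 15.7, 24.5 and 10.3 CPM in KO and 9.98, 11.4, 20.7 and 27.5 CPM in CT, so that KO 540 was near the lowest controls. Its log2 difference of 0.81 (95% interval -0.86 to 2.49) became -0.046 without KO 414. Col3a1, another fibrillar collagen, held 147, 43.2, 57.4 and 38.8 CPM in KO and 36.7, 35.3, 53.3 and 63.98 in CT, and 0.60 became -0.026.

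Tgfb1, the main signal for collagen synthesis, had 23.3, 17.02, 18.2 and 15.8 CPM in KO and 13.5, 14.4, 16.9 and 16.6 in CT (log2 0.28, SE 0.18, unadjusted p = 0.136), or 0.15 without KO 414. The elastic fibre genes Eln and Efemp2 differed by 0.98 and 0.46 with all livers, and by 0.20 and 0.18 without KO 414. Timp1, an inhibitor of matrix proteases, went from 0.97 to 0.0099 and the protease Mmp2 from 0.59 to -0.046 when that liver was left out. On CTD the matrix list had a median of -0.22, and in HFC females 0.20 with 30 of 36 above 0.

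Stellate cell scores, like matrix scores, were highest in KO 414 and next in CT 418. Of 20 genes, 15 were above 0, with a median of 0.12, or -0.050 without KO 414. Acta2, the smooth muscle actin of contractile stellate cells and of vessel walls, had 3.31, 2.13, 2.56 and 1.75 CPM in KO and 1.05, 1.94, 0.758 and 1.29 CPM in CT. Only CT 417 reached into the KO range (log2 0.96, SE 0.30, unadjusted p = 0.00501), and the difference was 0.78 without KO 414 and 1.14 within the 400s. Lrat, which stores retinol in quiescent stellate cells, differed by -0.060 (95% interval -0.49 to 0.37), and Pdgfrb, their growth factor receptor, by 0.29 (-0.33 to 0.91), or -0.078 without KO 414. Vipr1, a neuropeptide receptor on the same list, had 20.7, 25.5, 19.8 and 23.6 CPM in KO and 30.98, 24.999, 30.8 and 29.5 CPM in CT (log2 -0.38, SE 0.13, unadjusted p = 0.00962).

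Bile duct genes also rested on KO 414. The median of 12 cholangiocyte markers was 0.49, and 0.082 without that liver. Sox9, a factor of duct and progenitor cells, had 10.1, 3.36, 3.64 and 3.42 CPM in KO and 2.52, 3.45, 4.47 and 3.7 in CT, and 0.54 became -0.024. Krt19, the duct keratin, held 4.43, 2.42, 2.44 and 1.55 CPM in KO and 1.05, 2.69, 1.8 and 2.24 in CT (log2 0.48, SE 0.37, unadjusted p = 0.209), or 0.14 without KO 414. Tspan8 and Muc1, 2 surface proteins of duct cells, differed by 1.02 and 0.64, or 0.49 and 0.30 without KO 414. KO 414 also had the lowest score of the 8 livers for hepatocyte identity genes, 8.98 against 9.02 to 9.24, and how this bears on its other values was not tested.

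**Figure D3:**
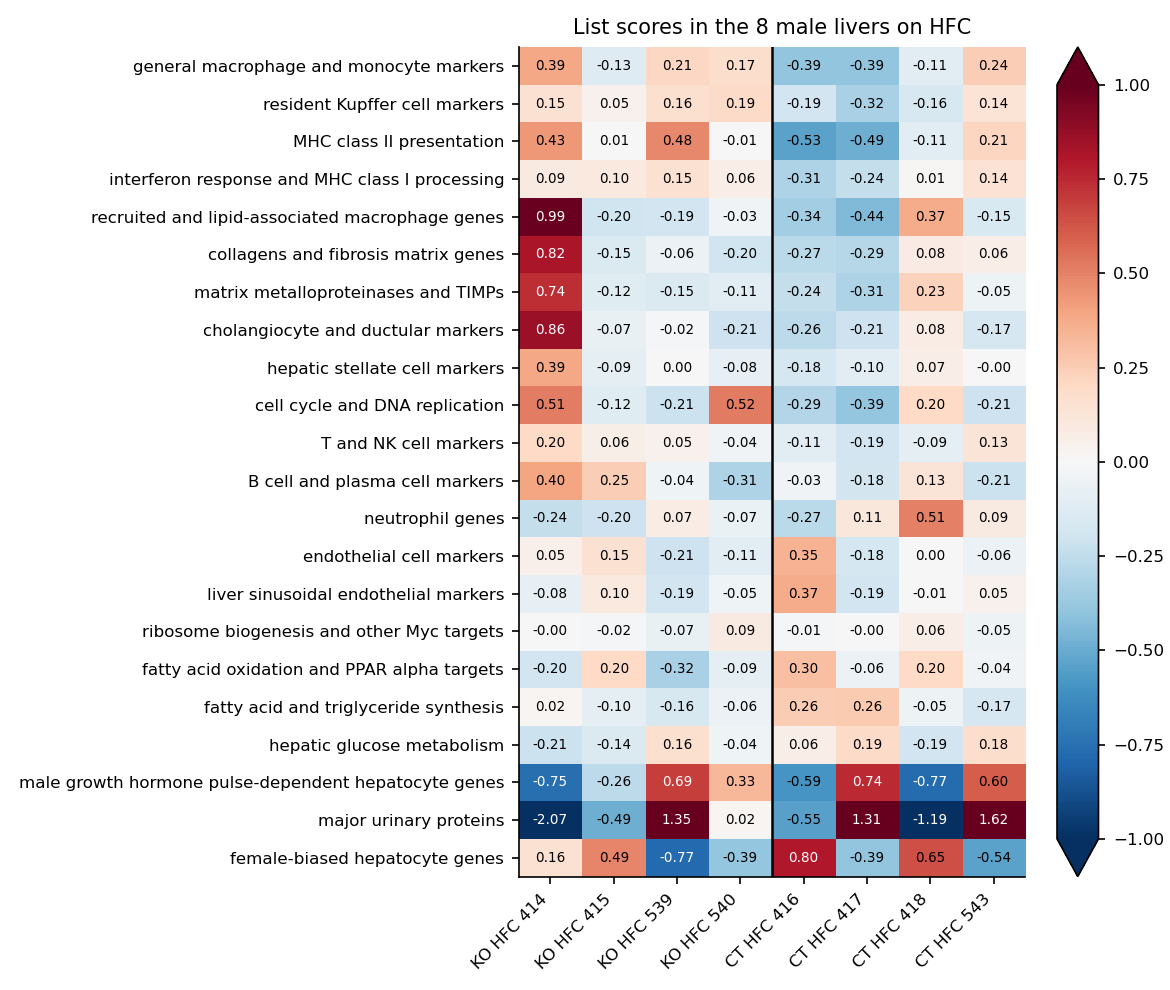
List scores in the 8 male livers on HFC, as mean log2(CPM + 1) of the members minus the mean of the 8 livers (colour and printed value), with the 4 KO livers left of the line and the 4 CT livers right of it. KO 414 is high for recruited macrophage, matrix, protease and cholangiocyte lists, and the growth hormone-dependent and major urinary protein lists split both genotypes.

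Cell cycle genes had the largest list median among lists of at least 5 tested genes. All 29 of 29 were above 0, with a median of 0.53 and a range of 0.023 to 1.38. At an unadjusted p under 0.05, 9 were higher. Of all tested genes, 51.1% were above 0, 2.86% were higher at that level, and 1.09% had KO above CT without overlap. Members of 1 list are not separate observations. The 95% interval lay within a 1.5-fold difference for 6 of 29. Bub1b, a kinase of the spindle checkpoint, held 1.71, 1.89, 1.9 and 3.46 CPM in KO and 1.09, 1.06, 1.4 and 0.955 CPM in CT without overlap (log2 0.99, SE 0.26, unadjusted p = 0.00134). Pcna, the sliding clamp of DNA replication, held 23.8, 22.6, 23.5 and 26.3 against 20.2, 20.3, 20.9 and 21.5 CPM, also without overlap (log2 0.21, SE 0.075, unadjusted p = 0.011). Mki67, the proliferation marker, had 18.1, 8.37, 6.58 and 20.3 CPM in KO and 6.46, 4.28, 14.3 and 7.22 CPM in CT (log2 0.72, SE 0.42, unadjusted p = 0.105), and Top2a, topoisomerase II, 9.08, 5.5, 4.14 and 12.3 against 3.82, 4.51, 5.91 and 5.19 CPM (log2 0.67, SE 0.25, unadjusted p = 0.0167). KO 414 and KO 540 had the highest scores (2.81 and 2.82), then CT 418 at 2.5, and the other 5 livers were at 1.91 to 2.17. The median was 0.29 without KO 414, 0.36 without KO 540 and 0.74 without CT 418. It was 0.081 on CTD and 0.089 in HFC females. Without KO 540, Bub1b, Mki67 and Top2a differed by 0.70, 0.45 and 0.36. The p53 target Cdkn1a, an inhibitor of cell division, overlapped widely between genotypes (0.087, 95% interval -1.21 to 1.39), with KO 414 at the top.

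Several genes of small p on the lower side act in hepatocyte glucose and lipid handling. Ppp1r3b (chromosome 8, 35375739 to 35388139, GRCm38), which brings protein phosphatase 1 to glycogen, held 77.4, 105, 116 and 128 CPM in KO and 222, 215, 160.1 and 141 CPM in CT without overlap. The means were 107 ± 21.5 and 184 ± 40.1 CPM (SD, n = 4). The log2 difference was -0.79 (SE 0.19, 95% interval -1.19 to -0.40, unadjusted p = 0.000637, adjusted p = 0.958 in edgeR's quasi-likelihood test). KO 414 was the lowest KO liver, and the difference was -0.66 without it and -1.11 within the 400s. On CTD, KO livers held 213, 267, 234 and 353 CPM and CT livers 248, 275, 319 and 243 CPM, a difference of -0.025, and the test between the diets gave -0.77 (unadjusted p = 0.01). In HFC females the difference was -0.27, and the test between the sexes gave unadjusted p = 0.104. Foxo1, the factor that drives glucose output in fasting, had 45.5, 54.6, 59.3 and 65.5 CPM in KO and 66.6, 87.6, 70.4 and 95.9 CPM in CT, just without overlap (log2 -0.51, SE 0.15, unadjusted p = 0.00281), and -0.41 in females. Pck1, a key enzyme of glucose synthesis, differed by -0.32 (95% interval -0.78 to 0.14) with overlap. Over the 16 genes of hepatic glucose metabolism 5 were above 0, with a median of -0.085.

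**Figure D4:**
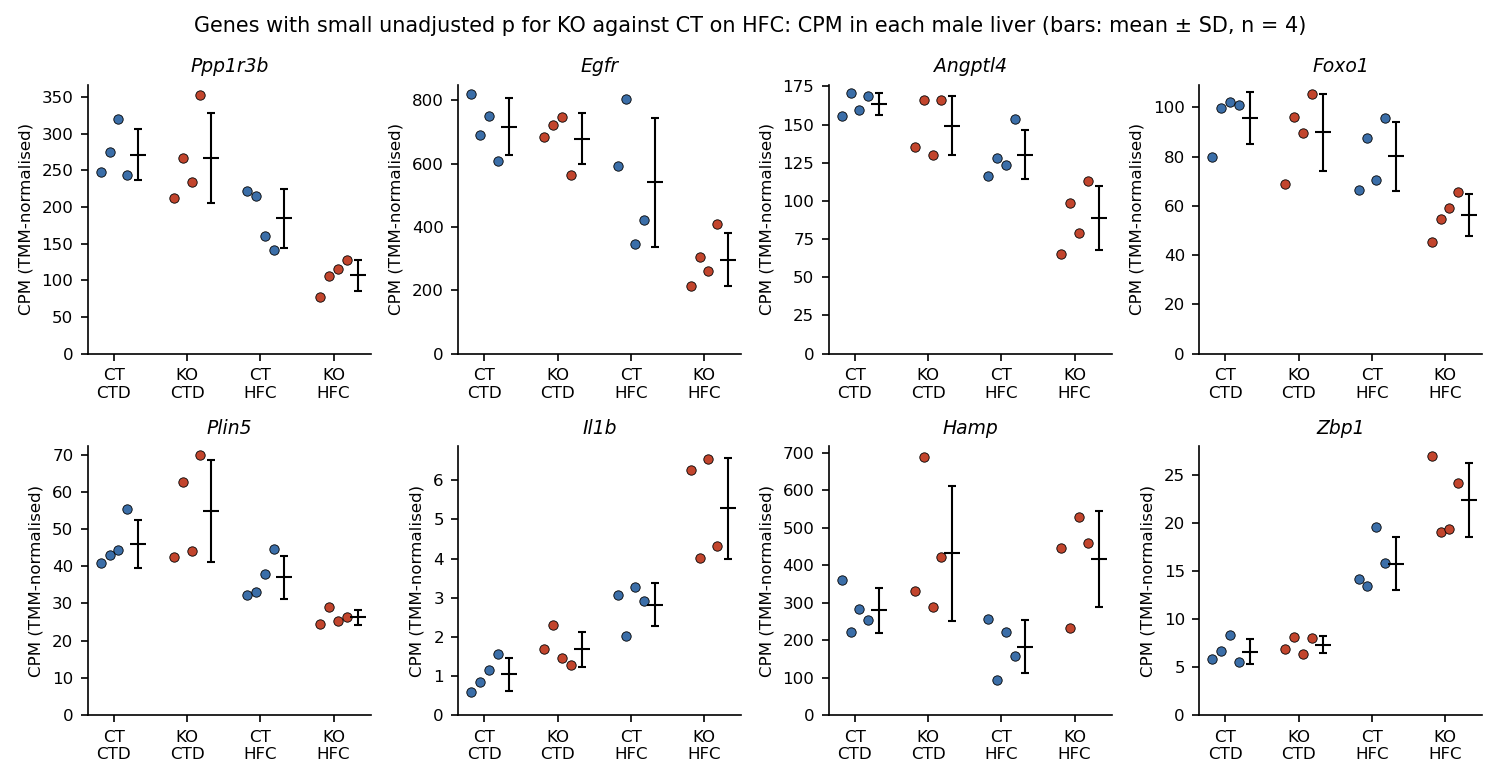
CPM of 8 genes in each male liver, by genotype (CT blue, KO red) and diet (CTD and HFC), with the mean and SD of 4 livers beside the points and every axis starting at 0. On HFC, Ppp1r3b, Angptl4, Foxo1 and Plin5 lie lower in all 4 KO livers than in any control, Il1b lies higher, and Egfr, Hamp and Zbp1 overlap.

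Angptl4, a secreted inhibitor of lipoprotein lipase, had 65.1, 98.6, 78.8 and 113 CPM in KO and 116, 128, 123 and 153 CPM in CT without overlap (log2 -0.55, SE 0.14, unadjusted p = 0.00102). Plin5, a lipid droplet protein that tethers droplets to mitochondria, had 24.3, 28.9, 25.3 and 26.4 against 32.3, 33.04, 37.99 and 44.7 CPM, also without overlap (log2 -0.50, SE 0.15, unadjusted p = 0.00528). For Plin5 the difference between the diets was -0.75 (unadjusted p = 0.00315), with 0.25 on CTD. Plin4, another droplet coat, differed by -1.17, and by -0.66 without CT 543, the highest liver for this gene. Eci2, an isomerase of unsaturated fatty acid oxidation, held 150.2, 206, 184 and 181 CPM in KO and 221, 210.2, 208 and 221 CPM in CT without overlap (log2 -0.25, SE 0.08, unadjusted p = 0.00526).

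Fatty acid oxidation and PPAR alpha target genes lay mostly a little below 0. Of 27 tested 26 were below 0, with a median of -0.14 and 2 at an unadjusted p under 0.05, both lower. Among all tested genes, 6886 of 14078 were below 0 and 1.78% were lower at that level. Members of a list are not separate observations. The median ranged from -0.20 to -0.11 when each animal was left out. It was 0.078 on CTD, where 24 of 27 were above 0, and -0.15 in HFC females. Ppara, the receptor that drives these genes, had 90.4, 133, 111 and 94.4 CPM in KO and 124, 152, 115 and 121 in CT (log2 -0.25, SE 0.11, unadjusted p = 0.0382). Cpt1a, the gate of mitochondrial oxidation, differed by -0.12 (SE 0.089).

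Lipid synthesis was mixed. Thrsp, a lipogenic factor, had 76.2, 46.1, 85.4 and 64.9 CPM in KO and 151, 151, 82.6 and 92.6 CPM in CT, with KO 539 just above the lowest control (log2 -0.81, SE 0.27, unadjusted p = 0.00929), and a like difference on CTD (-0.75). Fasn, fatty acid synthase, held 446, 317, 286 and 345 CPM in KO and 458, 421, 326 and 225 CPM in CT, a difference of -0.036 with a wide interval (-0.84 to 0.77). The cholesterol synthesis list had a median of -0.057 over 25 genes, none at an unadjusted p under 0.05, and of 0.075 without CT 416, with the sterol reductase Tm7sf2 at -0.32 (SE 0.16). Abcg1, a sterol exporter that macrophages and other cells use, held 41.3, 27.5, 28.8 and 30.4 CPM in KO and 22.7, 21.8, 31.4 and 26.5 in CT (log2 0.32, SE 0.15, unadjusted p = 0.0418), or 0.17 without KO 414. Among bile acid genes, Cyp7a1, the rate-limiting enzyme of their synthesis, differed by -0.41 (95% interval -1.79 to 0.97). Cyp8b1, which makes cholic acid, was below 4 CPM in all 8 livers (0.521, 1.23, 2.56 and 0.163 in KO and 0.293, 0.442, 0.2 and 3.36 in CT). The bile acid importers Slc10a1 and Slco1b2 differed by -0.35 (SE 0.17) and -0.25 (SE 0.14).

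The remaining genes of smallest p had varied roles. Egfr, the epidermal growth factor receptor, held 212, 305, 259 and 409 CPM in KO and 593, 804, 347 and 421 CPM in CT (log2 -0.87, SE 0.23, unadjusted p = 0.00192), with KO 540 inside the control range and 2 controls far above the rest. Chac1, which breaks down glutathione and is a target of the stress factor ATF4, had 7.04, 6.77, 8.02 and 8.07 CPM in KO and 17.9, 11.4, 10.1 and 18.1 CPM in CT without overlap (log2 -0.94, SE 0.25, unadjusted p = 0.00199). In HFC females the groups did not overlap either (5.48, 6.31 and 7.26 CPM in KO and 8.62, 14.5 and 10.2 in CT, log2 -0.81, unadjusted p = 0.00214). Herpud1, another stress-response gene, held 267, 367, 471 and 519 against 499, 617, 559.5 and 645 CPM (log2 -0.51, SE 0.17, unadjusted p = 0.00889). The list of unfolded protein and integrated stress response genes did not share this sign. Of its 19 genes 12 were above 0, with a median of 0.066 and a range of -1.38 to 0.67. Plekhf1, a protein of endosome and lysosome membranes, had 8.19, 10.2, 8.39 and 10.7 CPM in KO and 11.9, 17.5, 15.1 and 17.1 in CT without overlap (log2 -0.72, SE 0.18, unadjusted p = 0.000833).

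Tomm40l, a relative of the mitochondrial import pore, had 21.5, 35.4, 34.2 and 30.2 CPM against 52.5, 49.1, 57.6 and 39.2 CPM (log2 -0.71, SE 0.19, unadjusted p = 0.002). Ak4, a mitochondrial adenylate kinase, had 74.1, 98.2, 90.5 and 75.8 against 115, 112, 102 and 115 CPM (log2 -0.39, SE 0.11, unadjusted p = 0.00194). Arhgap32, a regulator of small GTPases, differed by -0.52 (SE 0.13), and Gm15800 by -0.29 (SE 0.069), all 4 of these genes without overlap. On the higher side, Odf2, a centrosome protein, held 16.04, 17.3, 17.7 and 17.5 CPM in KO and 15.3, 14.3, 14.2 and 14.3 in CT (log2 0.24, SE 0.068, unadjusted p = 0.0026), and Ap1s1, a clathrin adaptor subunit, 21.8, 19.4, 20.3 and 18.7 against 15.6, 15.8, 16.2 and 17.8 (log2 0.30, SE 0.086, unadjusted p = 0.00305). Rarg, a retinoic acid receptor, had 13.7, 11.4, 10.5 and 9.46 CPM in KO and 8.34, 7.46, 9.26 and 8.26 in CT (log2 0.44, SE 0.13, unadjusted p = 0.00358). Dennd3, an activator of Rab GTPases, differed by 0.45 (SE 0.13), Fam198a by 0.89 (SE 0.25) and BC023105 by 0.72 (SE 0.21). None of these 6 overlapped between groups.

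Some larger differences had more spread. Among 9826 genes of at least 5 CPM in either group, 18 differed by more than 1 on the log2 scale. Those described next were chosen after their values were seen. Hamp, hepcidin, the iron hormone of hepatocytes, held 445, 231, 529 and 461 CPM in KO and 256, 94.03, 223 and 159 CPM in CT, with KO 415 inside the control range (log2 1.19, SE 0.35, unadjusted p = 0.00425). Fst, follistatin, which binds activins, had 11.9, 4.06, 12.5 and 4.48 CPM in KO and 3.19, 3.27, 1.44 and 2.41 CPM in CT without overlap (log2 1.68, SE 0.53, unadjusted p = 0.00677). Rgs16, a brake on G protein signals, had 157, 145, 111 and 163 against 390.3, 278, 274 and 234 CPM without overlap (log2 -1.03, SE 0.28, unadjusted p = 0.00218). Lpin1, a phosphatidate phosphatase, held 65.96, 64.2, 115 and 219 CPM in KO and 110.0, 268, 123 and 614 CPM in CT, and -1.26 became -0.52 without CT 543. The hepatokine gene Fgf21 held 11.4, 4.35, 0.951 and 7.83 CPM in KO and 34.1, 2.78, 25.5 and 1.74 CPM in CT (log2 -1.38, SE 0.82, unadjusted p = 0.118), or -0.71 without CT 416. Gdf15, a stress-induced hormone, had 26.9, 5.37, 20.8 and 25.8 against 38.7, 29.1, 64.97 and 25.4 CPM (log2 -1.002, SE 0.51, unadjusted p = 0.0724), or -0.65 without CT 418.

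Hepatocyte genes that depend on the male pattern of growth hormone varied more between animals than between genotypes. The list score was 5.26, 5.75, 6.7 and 6.35 in KO and 5.42, 6.76, 5.25 and 6.62 in CT, so 2 livers of each genotype were low and 2 high. The low livers were KO 414 and 415 and CT 416 and 418, all in the lower range of animal numbers. Of that range only CT 417 was high. The list median of -0.17 was -0.27 with a term for the number range and -0.37 within the 400s. Major urinary protein scores were lowest in the same 2 livers of each genotype, 3.09, 4.67, 6.51 and 5.18 in KO and 4.61, 6.47, 3.96 and 6.77 in CT. The median of that list was -0.38, or -0.92 with the number-range term and -1.34 within the 400s. How the number range bears on these genes was not tested. Hsd3b5, a male-specific steroid enzyme, had 3.16, 14.4, 45.6 and 23.9 CPM in KO and 6.79, 70.2, 1.64 and 36.4 CPM in CT, and Cyp7b1, another, 7.04, 14.5, 62.7 and 25.7 and 14.6, 36.6, 14.6 and 59.2 CPM. The 95% intervals of their log2 differences were -2.35 to 1.54 and -1.74 to 1.37. The differences themselves were -0.40 and -0.19, and -1.57 and -1.02 within the 400s. Near-identical major urinary protein genes may share reads, so Mup7 (0.893, 4.18, 61.1 and 11.2 CPM in KO and 6.67, 99.998, 2.67 and 170.0 in CT) and Mup3 (log2 -0.34, SE 0.55) are uncertain as single genes. Cux2, a factor that is female-biased in mouse liver, was highest in CT 418 (2.35, 3.04, 2.19 and 1.79 CPM in KO and 5.91, 3.09, 13.4 and 2.2 in CT), and its -1.40 became -0.67 without that liver. Cyp2b9, a female-biased enzyme, differed by -0.76 (95% interval -2.66 to 1.14), or -0.21 without CT 416. The hormone's target Igf1 differed by -0.19 (SE 0.16), and Igfals, which carries IGF1 in blood, by -0.42 (SE 0.22).

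General hepatocyte genes were close between genotypes. Alb, albumin, held 54744, 63361, 50391 and 52659.7 CPM in KO and 62299.8, 62209, 53531 and 49699 CPM in CT (log2 -0.042, 95% interval -0.36 to 0.28). Nr1i2, the xenobiotic receptor PXR, had 63.9, 68.04, 66.5 and 58.8 against 73.4, 74.03, 81.4 and 80.6 CPM without overlap (log2 -0.27, SE 0.10, unadjusted p = 0.0191). Of 21 identity genes 7 were above 0, with a median of -0.071. The pericentral genes Glul (glutamine synthetase) and Cyp2e1 differed by -0.26 (SE 0.18) and -0.32 (SE 0.21), and the NRF2 target Nqo1 by 0.26 (SE 0.24). The lists of complement and coagulation, nuclear-encoded oxidative phosphorylation and mitochondrially encoded genes had medians of -0.069, -0.044 and -0.057. Without KO 414 the complement and oxidative phosphorylation medians were 0.019 and 0.019. Every interval in the oxidative phosphorylation and mitochondrially encoded lists lay within a 1.5-fold difference.

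Markers of cells that could enter a liver sample from outside were checked. Red cell genes were below 0 for all 6 members, with a median of -0.38. The beta globin gene Hbb-bs held 98.1, 193, 154 and 126 CPM in KO and 107, 199, 228 and 196 CPM in CT (log2 -0.36, SE 0.27, unadjusted p = 0.211), and Slc4a1, the anion exchanger of red cells, stayed below 2 CPM in every liver (log2 -1.12, SE 0.45, unadjusted p = 0.0236, or -0.73 without CT 418). Of the exocrine pancreas markers only Cela1 was abundant enough to be tested. It held 2.57, 2.5, 2.85 and 3.02 CPM in KO and 2.31, 2.12, 2.31 and 2.2 CPM in CT without overlap (log2 0.29, SE 0.17, unadjusted p = 0.107). Mesothelial and adipose markers, 7 and 3 tested, had medians of -0.076 and -0.14, the first of which took either sign when single livers were left out. Their part in the other values was not tested.

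**Figure D5:**
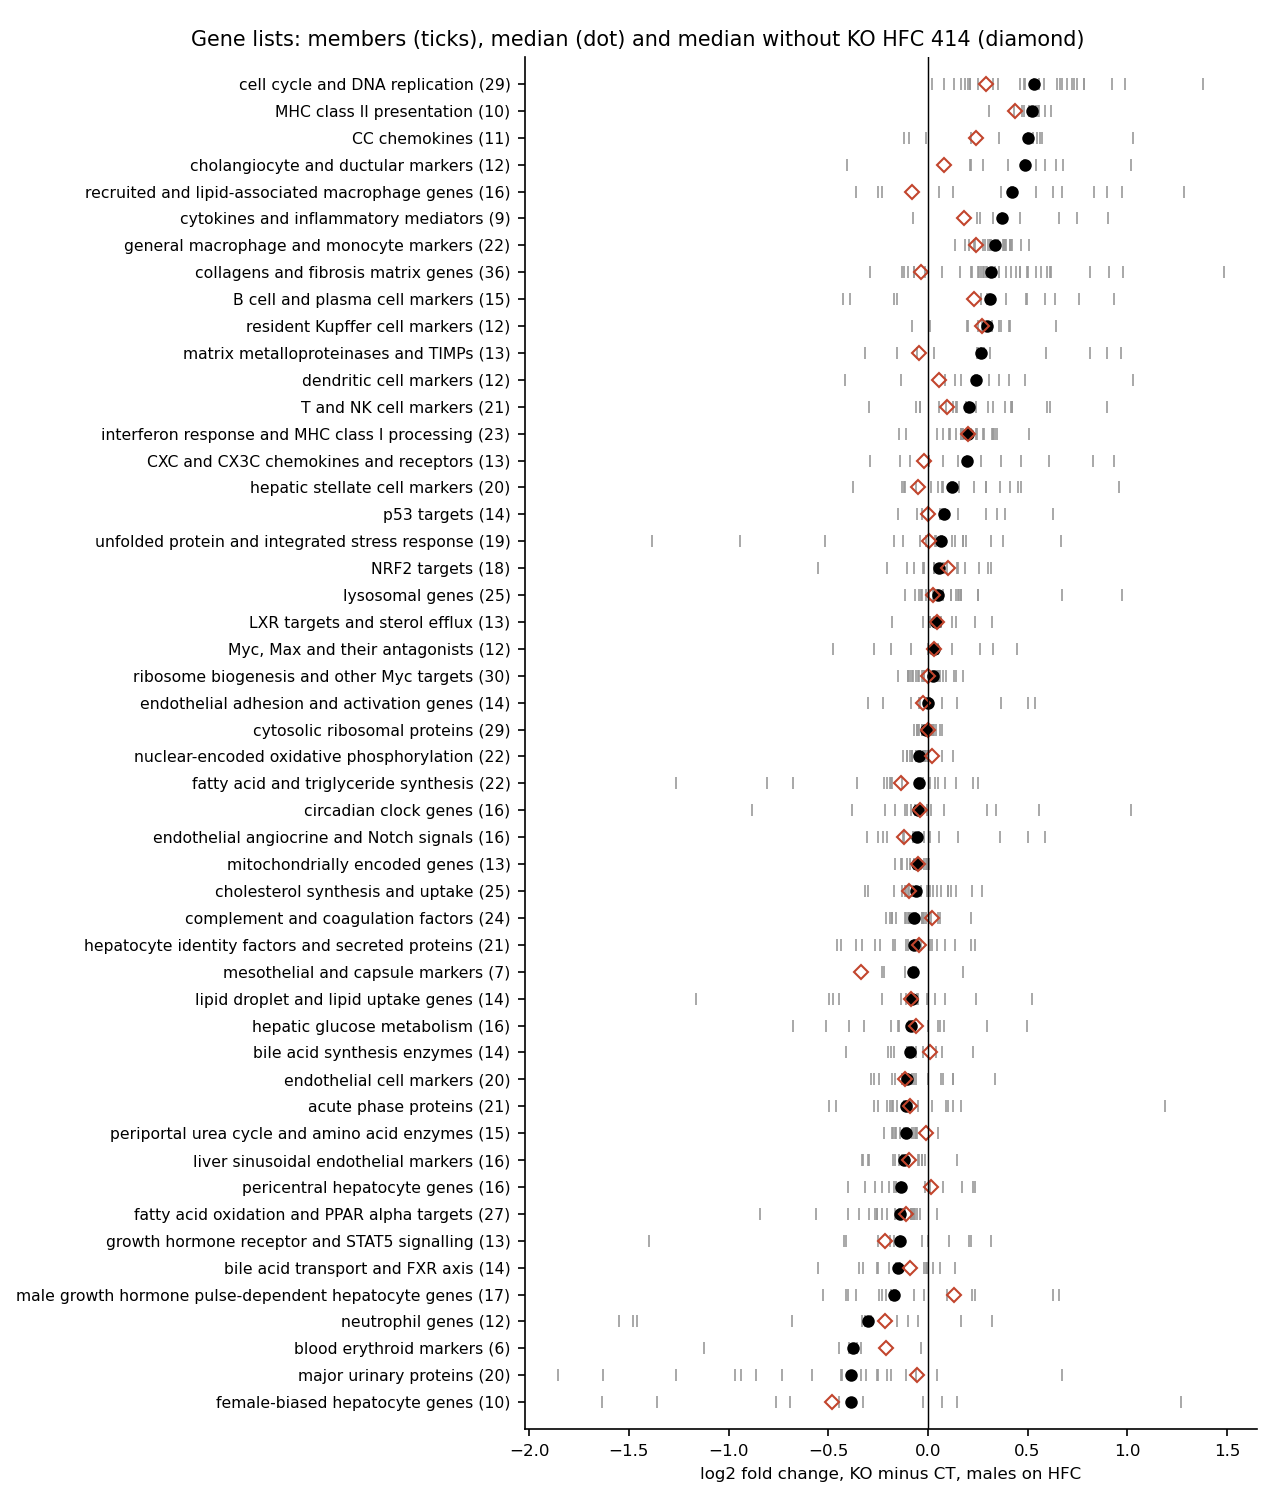
Log2 fold change, KO minus CT, of the tested members of each gene list with at least 5 tested genes (ticks, number tested in brackets), their median (black dot) and the median without KO 414 (open diamond). Cell cycle, MHC class II and macrophage lists lie right of 0 with and without KO 414, while recruited macrophage, matrix and protease lists cross to just below 0 without it.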

How the data were processed

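RNA from 28 whole livers, 1 library per animal, was sequenced by the DNBSEQ method, per the labels. The authors deposited tables of whole-number read counts per gene for each sex, with 32544 gene symbols, and tables of CPM, which were not used. The submitters' processing notes name FastQC, edgeR and the mouse build GRCm38 (mm10). No source used here gives the aligner, counting program, annotation or use of strand, so overlapping, antisense and near-identical genes are uncertain.

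The 16 male libraries (22154774 to 22652285 counts) were fitted together in edgeR 4.0.16 (R 4.3.3), with TMM factors, filterByExpr, 1 mean per group and the robust quasi-likelihood F test, so that the groups share an estimate of spread. Benjamini-Hochberg adjustment covered every gene tested, with a threshold of 0.05. The interaction came from the same fit, and the sex difference from a joint fit of 28 libraries. The standard error is the log2 fold change over the square root of F, and intervals are 95%. DESeq2 1.42.0, limma 3.58.1 (log2 CPM, prior count 2), other scalings and filters, animal-number ranges and leaving out each male HFC animal were alternatives. Animals within a group differed by more than sampling noise (the chi-square statistic divided by its degrees of freedom was 26 or more for every pair), and each counts once. Labels do not say whether animals shared a litter or cage. Counting error is a lower limit, since reads carry no molecular identifiers. The test was tried on simulated counts (13904 genes), with 7 false calls among 13709 unchanged genes.

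Named genes were Myc, the 10 of smallest p in each direction with at least 5 CPM (no gene was called), and from each of 52 lists the first 3 as written and up to 2 of smallest p, not all of which are printed; some results are not reported here. H2-Eb1, Ldha and Cdk4 were added for their promoters. The tables lack 5 of the 921 entries, and 23 of the 898 distinct genes stand in several lists. The members and lists were chosen with earlier results of these data known. Lists are described by counts and medians and were not tested. Of the symbols, 96.5% are in GENCODE M21 (GRCm38), which gave coordinates, counted from 1.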

Additional observations from a re-analysis of the deposited data

Results flagged for a closer look

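Within each group of 4 livers, the highest or lowest value was compared with its nearest neighbour for 141 genes and 52 list scores, 386 groups in all. In 20 of them (5.18%) 1 liver stood apart by Dixon's 95% criterion, which chance does in about 5% of groups, and 11 of the 20 were KO 414. None was left out for this.

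KO 414 stood above the other KO livers for the scores of recruited macrophage genes (4.59 against 3.40 to 3.56), matrix genes (4.82 against 3.80 to 3.94) and matrix proteases with their inhibitors (3.98 against 3.09 to 3.13). Among genes it was high for Gpnmb (71.5 CPM), Tnf (1.6 CPM), Ighm (25 CPM), Mmp2 (11.4 CPM), Lrat (20.2 CPM), Sox9 (10.1 CPM) and Tspan8 (6.37 CPM), and low for BC023105 (18.9 CPM). KO 540 was high for S100a8 (3.99 CPM) and Bub1b (3.46 CPM), and KO 539 for Mup7 (61.1 CPM).

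Among controls, CT 416 was high for Odf2 (15.3 CPM) and Stab1 (60.2 CPM), CT 418 for Ighd (2.83 CPM) and Cdk4 (49.6 CPM), and CT 543 for Timd4 (20.5 CPM) and Cyp8b1 (3.36 CPM). No named gene had groups that lay apart in opposite directions on the 2 diets or in the 2 sexes.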

How the results depend on the processing

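The count of 0 called genes for KO against CT on HFC was the same in edgeR and limma under every scaling, filter, sample choice, animal-number term and left-out animal that was run, and none of the 141 named genes passed in that comparison under any alternative. DESeq2 called 3 genes for this comparison, 5 for the interaction (861 at an unadjusted p under 0.05) and 1 for the sex difference (202 at that level). The 3 were Gm10359 and Gm12671, with identical counts (0 in every KO liver and 0, 1609, 490 and 3 in CT), and Gm12918 (172 counts in CT 543 and 0 in the other 7). The interaction added Clec1b, Kcna2 and Treml4 to Gm10359 and Gm12671, and the sex difference was Gm12918. limma called 0 in all 3 comparisons. Library totals in place of TMM factors moved the median of all genes from 0.0037 to 0.05. The medians of 25 of the 52 lists and the differences of 21 named genes changed sign under at least 1 alternative. With library totals the genes were Vcam1 (0.011), Fasn (0.027) and Alb (0.0069), with limma Hsd3b5 (0.19), with a term for the animal-number range Kdr (0.0040), Fasn (0.12), Cyp8b1 (-0.18) and Alb (0.014), and within the 400s Pecam1 (0.028), Vcam1 (0.19), Lrat (0.064) and Alb (0.0018). The cause was not tested. Leaving out each animal gave ranges that crossed 0 for 20 genes: Trem2 -0.044 to 0.44, Gpnmb -0.47 to 2.34, Col1a1 -0.046 to 1.12, Col3a1 -0.026 to 0.80, Mmp2 -0.046 to 0.78, Pdgfrb -0.078 to 0.43, Sox9 -0.024 to 0.70, Cyp7b1 -0.99 to 0.33, Cdkn1a -0.34 to 0.36, Vcam1 -0.19 to 0.19, Fasn -0.20 to 0.11, Cyp8b1 -0.76 to 1.83, Kdr -0.17 to 0.22, Alb -0.11 to 0.0039, Cdk4 -0.018 to 0.098, Lyve1 -0.23 to 0.054, Lrat -0.23 to 0.028, Cdh5 -0.040 to 0.19, Hsd3b5 -1.06 to 0.54 and Ldha -0.0089 to 0.14. No paired analysis was possible because each animal has its own number. At these depths a gene below 1 CPM rests on few reads, and with 4 livers a group, changes of 0.5 on the log2 scale were recovered less often than not in simulated counts.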
